A study of Mus musculus with 58 samples.

Results

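The 10 genes described here encode the core of the T helper 1 (Th1) program of CD4+ T cells: the transcription factors Tbx21, Eomes, Runx3 and Stat4, the IL-12 and IL-18 receptor chains Il12rb1, Il12rb2, Il18r1 and Il18rap, and the products Ifng and Cxcr3. They were listed by name as genes of this program, with earlier results of these data known, and all 10 were found among the 24028 genes of the count table and passed the filter on low counts. RNA was sequenced from mouse CD4+ T cells in 58 libraries, which fall into 15 groups of 3 genotypes in 5 states. Wild-type (WT) cells were compared with T1792 delta/delta cells (KO), whose miR-17∼92 alleles are lox/lox and were cut by CD4cre, and with T1792 tg/tg cells (TG), in which the same CD4cre excises a loxSTOPlox element at Rosa26 and so starts a CAG-driven miR-17∼92 transgene. Both engineered genotypes thus carry a Cre recombinase that WT cells lack, the Cd4 promoter drives it from thymocyte development on, and both are set against the same WT libraries, so that the KO and TG comparisons are not independent of each other. Naive cells were taken by a commercial isolation kit from lymph nodes and spleens pooled from 10 male and female mice, whose age the labels do not give. They were sequenced as isolated, or after culture for 24 h or 48 h with plate-bound anti-CD3 (0.25 µg/ml for the very weak stimulus and 0.5 µg/ml for the weak one) together with 0.2 µg/ml of anti-CD28. The culture medium held 50 U/ml of IL-2, and no IL-12 is named. Each group had 4 libraries, except naive KO and naive WT cells, which had 3 (replicates 1, 2 and 4).

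Th1 cells arise when a T cell that has met antigen also receives interferon-gamma and IL-12 signals. T-bet, the protein of Tbx21, switches on the interferon-gamma gene, the chemokine receptor gene Cxcr3 and the second chain of the IL-12 receptor, and IL-12 then acts through STAT4 to stabilise that state and to induce the IL-18 receptor. miR-17∼92 is a cluster of microRNAs, short RNAs that pair through their seed with sites in messenger RNAs and lower their stability or translation, and its loss or gain is known to alter the expansion and differentiation of T helper cells.

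The cluster gives rise to mature microRNAs of 4 seed families, encoded within 1 kb of chromosome 14 (GRCm38, plus strand, from chr14:115043684-115043706 for miR-17-5p to chr14:115044476-115044496 for miR-92a-3p). They are shown because the genotypes differ in them; the sequences are RefSeq's on GRCm38.p6, with the seed (bases 2 to 8) in capitals. miR-17-5p and miR-20a-5p share a seed, as do miR-19a-3p and miR-19b-3p.
mmu-miR-17-5p: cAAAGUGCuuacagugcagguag
mmu-miR-20a-5p: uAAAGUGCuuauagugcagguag
mmu-miR-18a-5p: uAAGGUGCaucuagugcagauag
mmu-miR-19a-3p: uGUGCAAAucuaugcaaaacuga
mmu-miR-19b-3p: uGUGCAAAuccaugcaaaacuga
mmu-miR-92a-3p: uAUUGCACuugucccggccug

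Letters complementary to one of these seeds occur in the annotated 3′ UTRs of 4 of the 10 Th1 genes: Eomes, Runx3, Il12rb2 and Il18rap. The same search found at least 1 match in 32.3% of the 12653 tested genes with an annotated 3′ UTR, so 4 of 10 is near the share of all genes. The matches are printed 5′ to 3′ on the gene's strand with the paired letters in capitals. Eomes has a miR-92a match at base 113 of its 1120-base UTR (chr9:118485125-118485131, plus strand). Runx3 has a miR-19 match at base 1989 of 2158 (chr4:135177821-135177827, plus strand). The miR-19 match of Il12rb2, at base 726 of 885 (chr6:67291471-67291477, minus strand), is followed by an A and so is of the 8-base kind. Il18rap has a miR-19 match at base 258 of 2617 (chr1:40549346-40549352) and a miR-17/20a match at base 2512 (chr1:40551600-40551606), both on the plus strand. A match is a description of these letters and not a measured target site.
Eomes, miR-92a: tatcctgttttGTGCAATtctctgagaga
Runx3, miR-19: agtgggcctgcTTTGCACtataggctgct
Il12rb2, miR-19: gaagctatcagTTTGCACataagcattct
Il18rap, miR-19: cgcatgcctgtTTTGCACtatatatatga
Il18rap, miR-17/20a: accagtaagcaGCACTTTtccatggctct

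Promoter windows of 300 bases, credited to RefSeq on GRCm38.p6, were available for 9 of the 10 genes and were searched on both strands for short motifs of factors that act in Th1 cells. The T-box motif GTGTGA lies in 14.5% of the 32851 windows of all genes, and among the Th1 genes in those of Il12rb2 and Cxcr3. The RUNX motif TGTGGT lies in 16.8% of all windows and in those of Cxcr3, Il18rap, Runx3 (1 of its 2) and Il18r1 (1 of its 3). Stat4 also has 2 windows, so a share of genes is not like a share of windows. The NFAT core GGAAA lies in 61.3% of all windows and in those of Tbx21, Eomes, Stat4, Il18r1, Il18rap and Ifng. The STAT palindrome TTCNNNGAA lies in 8.3% and in windows of Il12rb2, Il18r1 and Ifng. The AP-1 motif TGANTCA lies in 7.81% and in no window of the Th1 genes. The windows of Il12rb2 and Cxcr3 are printed because these receptor genes follow T-bet in the textbook program and were higher in every TG library than in the WT library of the same number and stimulated state, as given below. Ifng also follows T-bet there and was higher in every such pair, and its window, not printed, holds neither the T-box nor the RUNX motif. Capitals mark the T-box motif and, in Cxcr3, also the RUNX motif, each as it reads on the opposite strand. A motif is a match of letters, not evidence of binding, and a window without one says nothing about the factor.
Il12rb2 promoter, chr6:67376139-67376438, minus strand: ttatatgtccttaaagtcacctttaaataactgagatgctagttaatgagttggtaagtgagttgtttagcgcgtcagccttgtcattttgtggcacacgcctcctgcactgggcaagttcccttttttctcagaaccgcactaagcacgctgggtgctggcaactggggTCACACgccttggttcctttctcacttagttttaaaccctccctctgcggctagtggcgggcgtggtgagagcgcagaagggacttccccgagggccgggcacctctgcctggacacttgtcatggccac
Cxcr3 promoter, chrX:101734098-101734397, minus strand: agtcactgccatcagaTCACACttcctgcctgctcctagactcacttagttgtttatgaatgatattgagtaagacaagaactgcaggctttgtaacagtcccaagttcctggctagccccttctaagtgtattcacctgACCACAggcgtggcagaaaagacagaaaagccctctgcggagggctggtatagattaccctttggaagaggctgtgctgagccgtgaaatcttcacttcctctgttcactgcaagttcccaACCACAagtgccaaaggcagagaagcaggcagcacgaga

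The libraries held 19.2 to 20.8 M exonic counts each, so depth differed little between groups, and levels are given as counts-per-million (CPM) on TMM-scaled library sizes. The deleted and added sequence was checked first. The 4 hairpin genes of the cluster with a row in the table (Mir17, Mir18, Mir19a and Mir20a) together had 0 to 3 counts in each KO library, 6 to 27 in each WT library, 17 to 61 in each stimulated TG library and 224 to 470 in each naive TG library. No KO library overlapped a WT library, which is what the labels call for, although these counts come from polyadenylated precursor RNA and not from mature microRNAs. The host transcript Mir17hg, whose counted exons begin past nearly all of the hairpins and so do not test for them, stood higher in stimulated KO libraries (79.2 to 145 CPM) than in WT (18.3 to 60.3) or TG libraries (20.5 to 65.7). CD4 T cell markers summed to 1781 to 3613 CPM in stimulated and 3521 to 4892 CPM in naive libraries. Summed CD8 markers reached 26.1, B cell markers 65.1 and myeloid markers 5.01 CPM at most after stimulation. In naive libraries the same lists reached 67.1, 299 and 252 CPM, and the NK list ran from 50.4 to 131 CPM.

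In WT cells after stimulation in culture, the IL-12 receptor chains and T-bet were higher and the IL-18 receptor chains lower than in naive cells. Stat4 and Ifng were higher mainly by 48 h. No cells cultured without a stimulus were sequenced, so activation cannot be told apart from culture. Over the same comparison, to 24 h of the very weak stimulus, list means fell from 99.0 to 4.56 CPM for NK and from 176 to 2.24 CPM for myeloid genes. Their part was not tested. The plot of levels by library gives all 10 genes in the 15 groups. Il12rb1 (chromosome 8: 70808360 to 70823542, plus strand), the chain shared by the IL-12 and IL-23 receptors, stood at 4.34, 7.55 and 6.87 CPM in naive WT cells and at 213, 194, 193 and 213 CPM after 24 h of the very weak stimulus. Tbx21 (chromosome 11: 97098007 to 97115331, minus strand) stood at 4.24, 4.74 and 10.8 CPM in naive WT cells and at 81.0, 78.7, 80.2 and 102 CPM after those 24 h. The naive and activated ranges of both genes were far apart, and edgeR put the rise at log2 5.02 for Il12rb1 and 3.69 for Tbx21, and at log2 5.20 and 4.05 at 48 h of the same stimulus. Il12rb2 (chromosome 6: 67285986 to 67376293, minus strand), the chain that makes the receptor specific for IL-12, came later: it averaged 3.39 ± 1.15 CPM in naive WT cells (SD, n = 3), 33.8 ± 7.17 CPM at 24 h and 207 ± 110 CPM at 48 h (SD, n = 4; very weak stimulus). Its rise against naive cells was log2 3.31 at 24 h and 5.92 at 48 h, and from 24 h to 48 h over both stimuli it rose by log2 2.74.

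**Figure D1:**
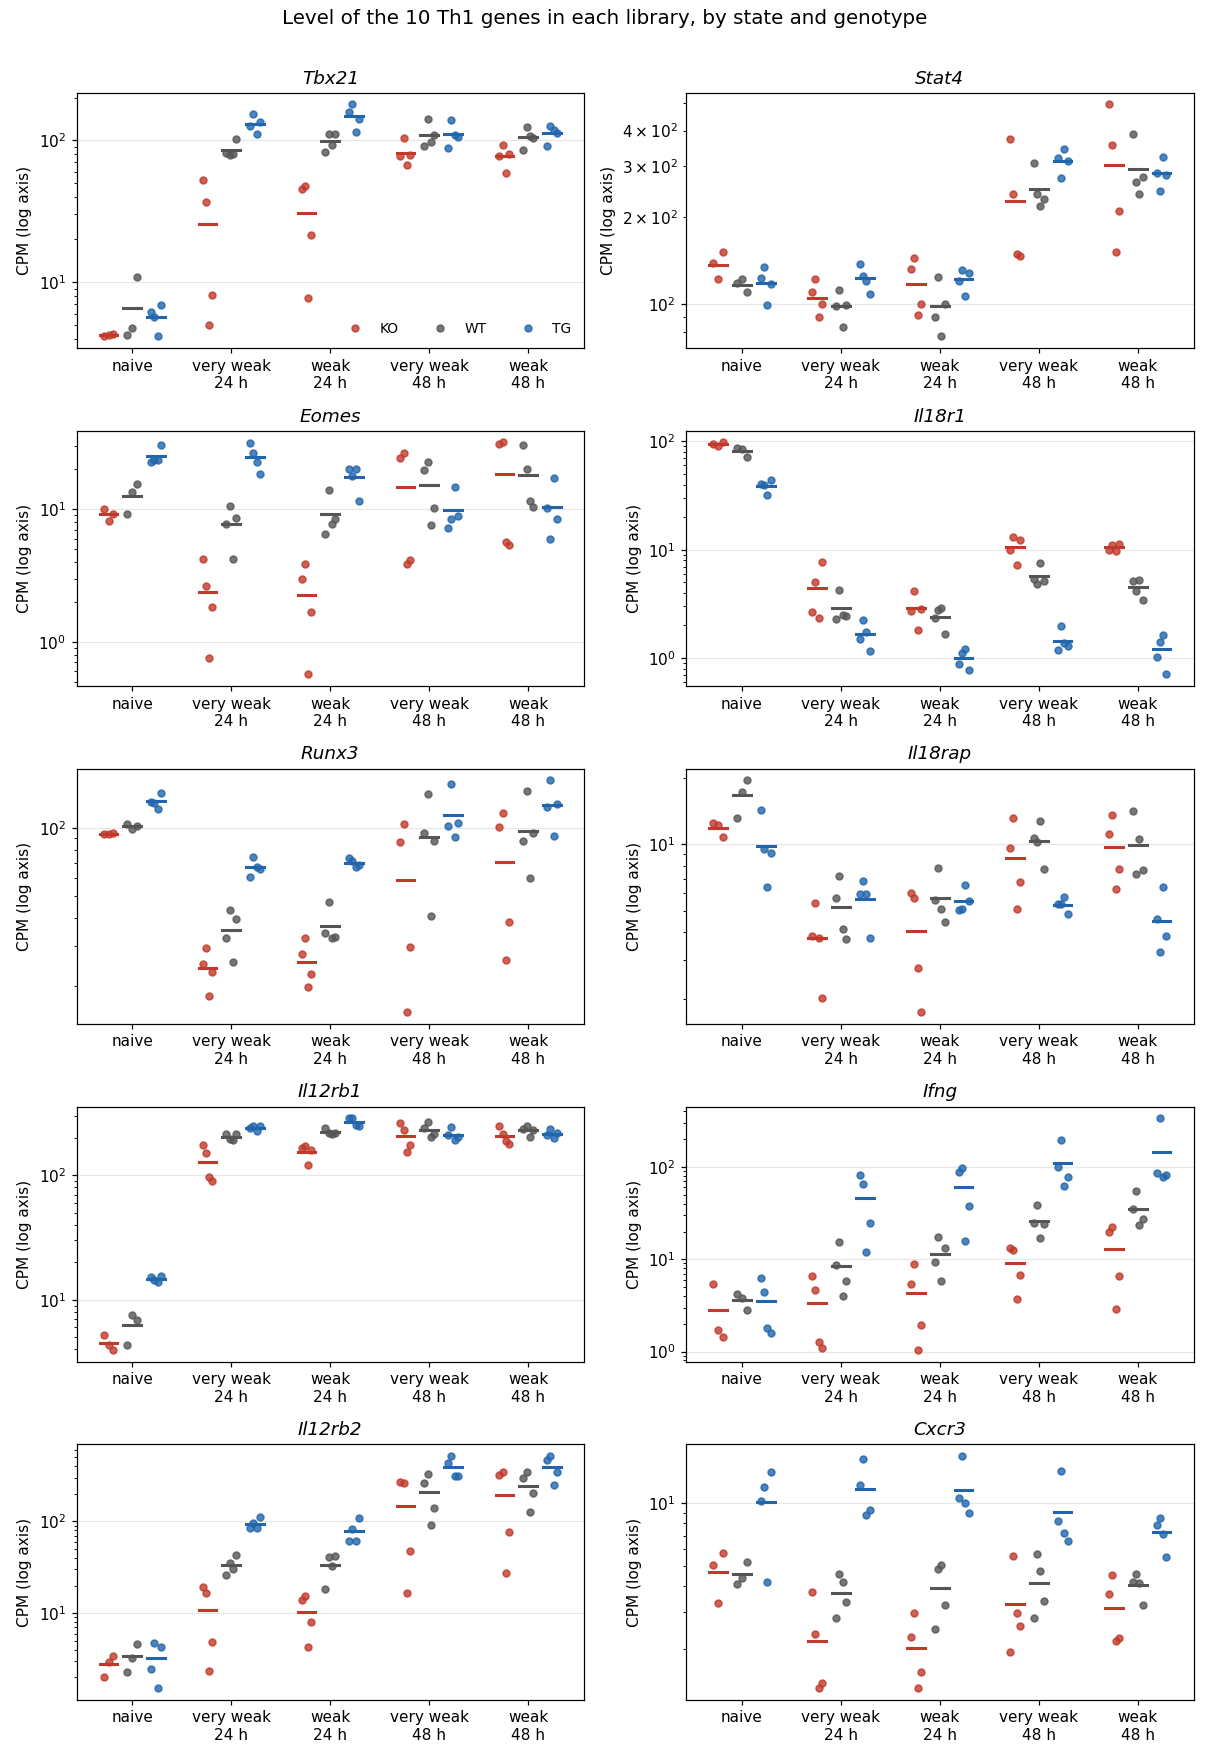
Level of each Th1 gene in every library, in CPM on a log axis (y), by state (x: naive, then very weak and weak stimulus at 24 h and 48 h); KO libraries are red, WT grey and TG blue, and a bar marks the mean of each group. Il18r1 falls from 72.5 to 87.2 CPM in naive WT cells to 1.65 to 7.51 CPM after stimulation, while Ifng spreads from 77.8 to 339 CPM in TG cells at 48 h of the weak stimulus.

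The IL-18 receptor moved the other way. Il18r1 (chromosome 1: 40465552 to 40500854, plus strand), its ligand-binding chain, stood at 87.2, 86.1 and 72.5 CPM in naive WT cells and at 2.27, 4.26, 2.52 and 2.44 CPM after 24 h of the very weak stimulus, with no overlap. The fall was log2 -4.83, and at 48 h the gene was still lower than in naive cells by log2 -3.85. Il18rap (chromosome 1: 40515362 to 40551707, plus strand), the accessory chain, fell by 1.68 and 1.53 on the log2 scale at 24 h of the very weak and the weak stimulus. The product Ifng (chromosome 10: 118441046 to 118445894, plus strand), interferon-gamma, rose by log2 2.87 and 3.29 at 48 h, and by log2 1.69 at 24 h of the weak stimulus (edgeR, adjusted p = 0.0378). That 24 h call was lost without 5 of the 7 libraries compared, in turn, with adjusted p from 0.0623 to 0.115. A fit of only the groups compared called Ifng higher at 24 h of the very weak (edgeR, log2 1.27, adjusted p = 0.00914) and the weak stimulus (1.70, 0.000385).

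Among the other transcription factors, Runx3 (chromosome 4: 135120645 to 135177990, plus strand), which works with T-bet at the Ifng and Il4 loci, fell by 1.53 and 1.47 on the log2 scale at 24 h and was not called at 48 h. Stat4 (chromosome 1: 51987106 to 52107189, plus strand), the signal transducer of the IL-12 receptor, rose by log2 1.10 and 1.33 at 48 h and was not called at 24 h. Eomes (chromosome 9: 118478186 to 118486132, plus strand), a T-box relative of T-bet, and Cxcr3 (chromosome X: 101731535 to 101734147, minus strand), the receptor for interferon-induced chemokines, were called against naive cells in none of the 4 states in the edgeR fit of all libraries. A fit of only the groups compared called Eomes lower at 24 h of the very weak stimulus (edgeR, log2 -0.67, adjusted p = 0.0324). In all, 6 of the 10 genes were called at 24 h of the very weak stimulus (76.3% of all genes tested were), 7 at 24 h of the weak stimulus (77.4%), 7 at 48 h of the very weak (77.7%) and 7 at 48 h of the weak stimulus (78.2%), shares no higher than those of all genes. From 24 h to 48 h in WT cells 7 of 10 were called, all higher (54.6% of all genes were called, 28.6% as higher), and the call of Eomes among them (log2 0.97) was lost without WT replicate 2 of the very weak or replicate 1 of the weak stimulus at 48 h, with adjusted p between 0.0519 and 0.0657. In bulk RNA a change in the number of cells that express a gene cannot be told apart from a change in RNA per cell, here and in every comparison that follows.

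Levels between genes were compared per kilobase of exon. In naive WT cells Stat4 led at 32.0 CPM per kb, followed by Runx3 at 24.3 and Il18r1 at 17.0, and the other 7 genes lay between 1.15 and 3.04. At 48 h of the weak stimulus Il12rb2, Stat4 and Il12rb1 led at 83.1, 80.3 and 80.0 CPM per kb, Tbx21 reached 41.3 and Ifng 29.1, and Il18r1 was lowest at 0.933. Over the 15 groups the highest group mean exceeded the lowest by 142-fold for Il12rb2, 95.6-fold for Il18r1, 59.9-fold for Il12rb1, 51.7-fold for Ifng and 35.1-fold for Tbx21. The span was 11-fold for Eomes, 5.78-fold for Cxcr3, 5.48-fold for Runx3, 4.41-fold for Il18rap and 3.20-fold for Stat4.

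When the 15 groups were ordered by mean level, most neighbours in the order overlapped in their libraries. For Eomes, Runx3, Stat4, Ifng and Cxcr3 none of the 14 neighbouring pairs was apart. Tbx21 was highest in TG cells at 24 h (149 CPM under the weak stimulus), then ran through all 48 h groups and the WT 24 h groups to KO cells at 48 h (77.5 CPM), below which came the only gap, to the KO 24 h groups (30.6 and 25.6 CPM) and the naive cells. Il12rb1 had 4 gaps, of which 2 set naive TG cells (14.8 CPM) apart from stimulated cells above and from naive WT cells (6.25 CPM) below. Il18r1 also had 4: the naive cells lay in the order KO, WT, TG (94.8, 81.9 and 39.0 CPM), each apart from the next and the last apart from the KO 48 h groups (10.7 and 10.5 CPM), and KO cells at 48 h of the weak stimulus lay apart from the WT 48 h groups (5.69 and 4.49 CPM) below them. The 4 lowest group means of Il18r1 were those of the stimulated TG groups, at 0.992 to 1.66 CPM. Il12rb2 had its only gap between TG cells at 24 h (94.4 and 78.6 CPM) and WT cells at 24 h (33.8 and 33.6 CPM), and Ifng was highest in the 4 stimulated TG groups (146 to 46.3 CPM).

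Without the cluster, Tbx21 was lower at 24 h. Under the very weak stimulus it stood at 52.5, 36.8, 4.96 and 8.06 CPM in KO replicates 1 to 4 and at 81.0, 78.7, 80.2 and 102 CPM in WT cells. Under the weak stimulus the KO libraries held 45.2, 47.8, 7.68 and 21.5 CPM and the WT libraries 82.2, 110, 93.0 and 111 CPM. Every KO library lay below every WT library, and KO replicates 3 and 4 lay far below KO replicates 1 and 2, with replicate 3 near the 4.15 to 4.27 CPM of naive KO cells. edgeR gave a log2 fold change of -1.74 ± 0.376 (SE; adjusted p = 0.0072) under the very weak and -1.70 ± 0.374 (adjusted p = 0.0076) under the weak stimulus, in 4 against 4 libraries. The first call was lost without KO replicate 3 (log2 -1.40, adjusted p = 0.0509) or KO replicate 4 (-1.45, 0.0654), and the second without KO replicate 3 (-1.38, 0.051). A fit of only these 8 libraries of the very weak stimulus also lost it (adjusted p = 0.193).

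Il12rb1 was the other Th1 gene called in KO cells at 24 h of the very weak stimulus, where it stood at 175, 151, 96.6 and 90.7 CPM against 213, 194, 193 and 213 CPM in WT cells. Again every KO library was below every WT library and replicates 3 and 4 were lowest. The log2 fold change was -0.66 ± 0.148 (edgeR, adjusted p = 0.00976), and was lost without KO replicate 3 (-0.55, 0.0926), without KO replicate 4 (-0.53, 0.121) or in a fit of these 8 libraries alone (adjusted p = 0.129). In all, 2 of the 10 genes were called lower under the very weak stimulus (1.06% of all genes were called in either direction) and 1 under the weak stimulus (1.4%), with none higher.

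Equal replicate numbers deviated together across the 3 genotypes of a stimulated state, so a fit with the replicate number as a block was set beside these results. With it, 5 of 10 genes were lower in KO cells at 24 h under each stimulus (2.55% and 3.18% of all genes called): Tbx21, Il12rb1, Eomes, Il12rb2 and Ifng. Eomes stood at 4.25, 2.65, 0.752 and 1.82 CPM in KO and at 7.78, 10.6, 4.23 and 8.66 CPM in WT cells under the very weak stimulus. KO replicate 1 overlapped WT replicate 3, but each KO library lay below the WT library of its number, and the blocked log2 fold change was -1.77 (edgeR, adjusted p = 0.0467), with -2.09 (0.0119) under the weak stimulus. Il12rb2 stood at 19.5, 16.6, 2.36 and 4.82 CPM in KO against 26.2, 35.1, 30.6 and 43.0 CPM in WT cells, with no overlap, and its blocked value was -1.92 (0.0208), or -1.89 (0.02) under the weak stimulus. Ifng stood at 6.57, 4.70, 1.25 and 1.08 CPM in KO against 8.57, 15.5, 4.03 and 5.81 CPM in WT cells. The groups overlapped, though each KO library was below the WT library of its number, and the blocked values were -1.38 (0.0411) and, under the weak stimulus, -1.64 (0.00631). Without the block, the edgeR fit of all libraries called none of Eomes, Il12rb2 and Ifng in KO cells in any state. A fit of only the 8 libraries of the weak stimulus at 24 h called 4 of the 10 genes (1.42% of all genes): Tbx21 (-1.70, adjusted p = 0.0482), Il12rb1 (-0.52, 0.0342), Eomes (-2.01, 0.0297) and Il12rb2 (-1.69, 0.0297). Effector memory genes summed to 154 to 279 CPM in KO and 207 to 288 CPM in WT cells at 24 h of the very weak stimulus, naive T cell genes to 1225 to 1727 and 1119 to 1365 CPM, and NK genes to 2.56 to 4.67 and 3.6 to 5.15 CPM. Their part in the KO results was not tested.

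**Figure D2:**
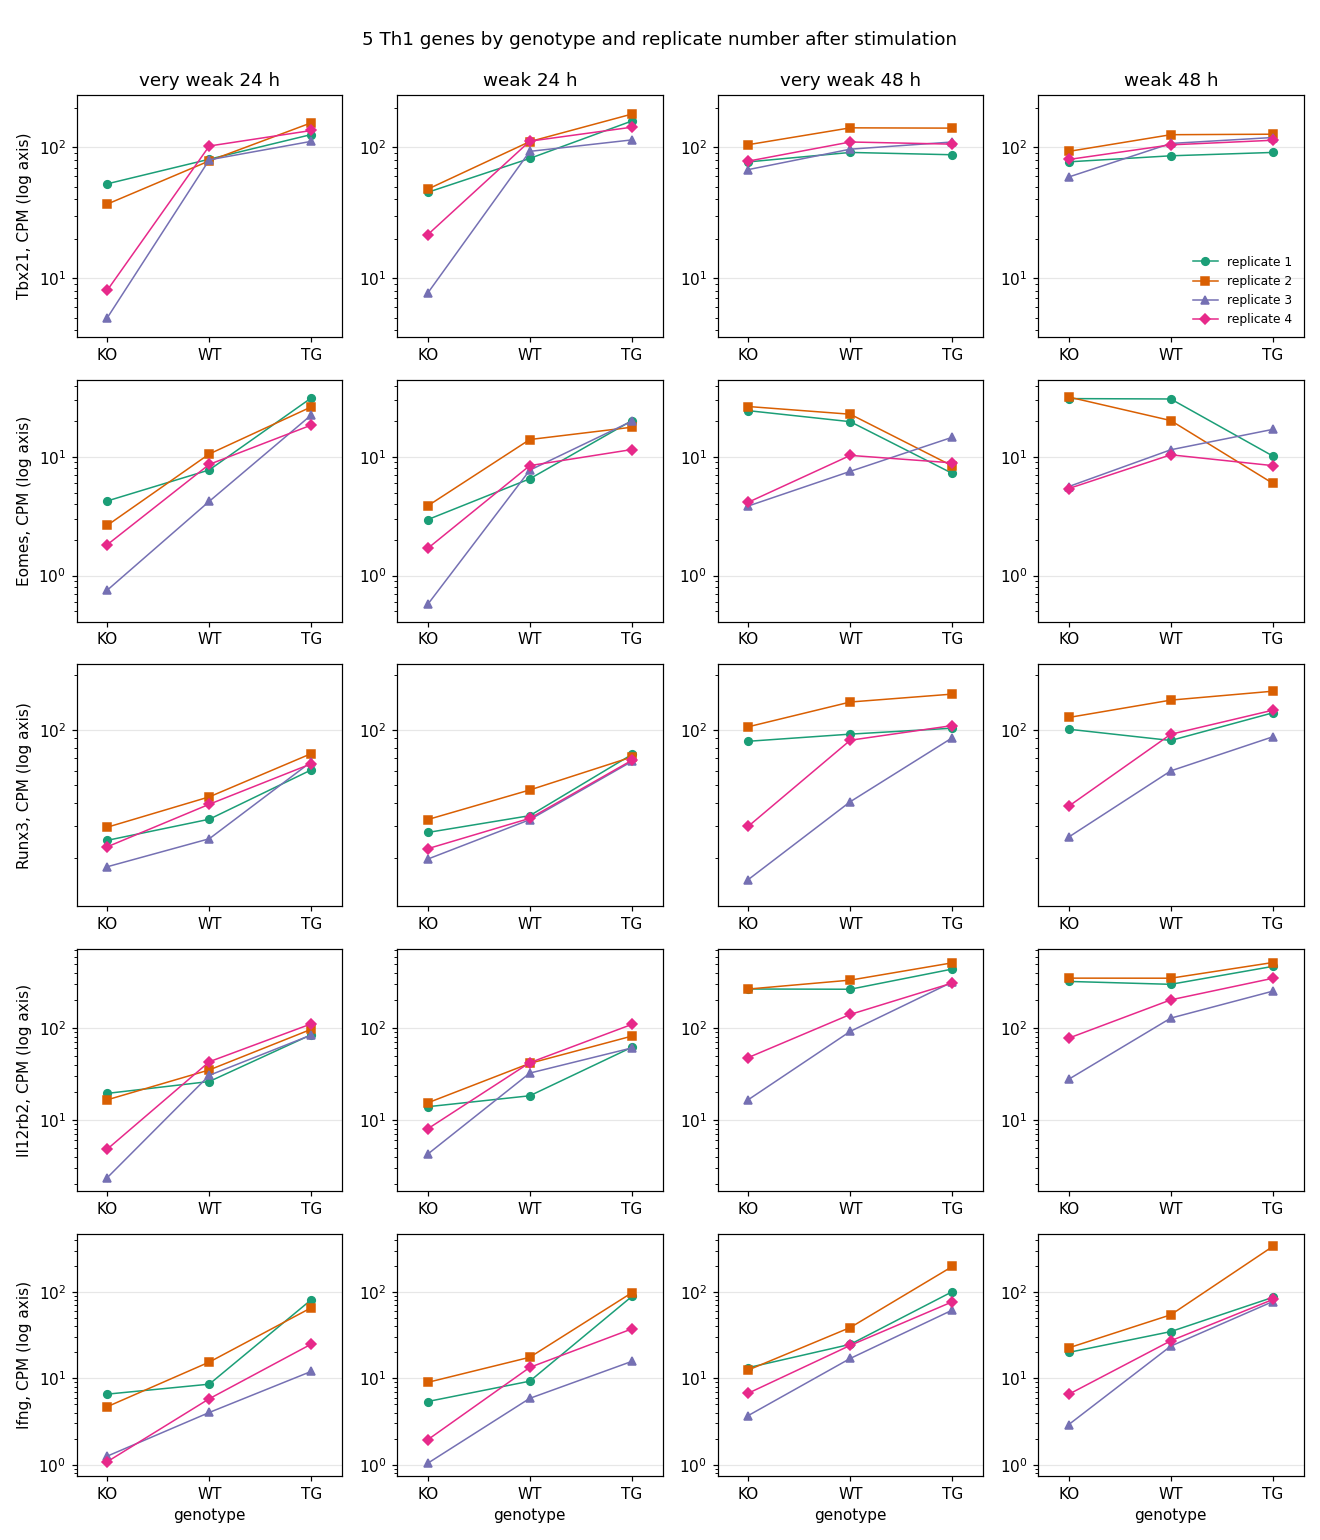
Tbx21, Eomes, Runx3, Il12rb2 and Ifng in the 4 stimulated states (panels), in CPM on a log axis (y), with KO, WT and TG along x and a line joining the libraries of the same replicate number. The lines of Tbx21 rise from KO to WT in all 16 pairs, steepest for replicates 3 and 4 at 24 h, and those of Ifng rise from KO through WT to TG in every pair.

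At 48 h the gap in Tbx21 was narrower. KO cells held 77.2, 105, 67.5 and 78.3 CPM under the very weak stimulus against 91.3, 141, 96.7 and 110 CPM in WT cells, and the groups overlapped, although each KO library was still below the WT library of its number. Over the 8 same-number pairs of each time, the KO to WT ratio of Tbx21 ran from 0.0619 to 0.648 at 24 h (median 0.313) and from 0.554 to 0.899 at 48 h (median 0.744). The same ratio of Eomes was under 1 in 8 of 8 pairs at 24 h (median 0.23) and in 4 of 8 at 48 h (median 0.763), and that of Il12rb2 in 8 of 8 (median 0.281) and 5 of 8 (median 0.591). Whether the KO effect itself differed between 24 h and 48 h was tested as an interaction: edgeR called 0 of the 10 genes (0.781% of all genes were called), 5 had an unadjusted p under 0.05, and DESeq2 called Eomes (adjusted p = 0.0402; 1.43% of all genes). With the replicate block, the KO effect was less negative at 48 h for Tbx21 (by log2 1.37, adjusted p = 0.0202), Eomes (1.83, 0.0327) and Il12rb1 (0.45, 0.035), where 1.5% of all genes were called.

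Il18r1 was the 1 Th1 gene called higher without the cluster. At 48 h KO libraries held 9.87, 13.2, 7.30 and 12.3 CPM under the very weak stimulus against 5.34, 4.78, 7.51 and 5.13 CPM in WT cells, where WT replicate 3 overlapped the KO range. Under the weak stimulus they held 9.95, 11.1, 9.75 and 11.3 CPM against 5.12, 4.14, 5.30 and 3.41 CPM, with no overlap. The log2 fold changes were 0.91 ± 0.238 (edgeR, adjusted p = 0.0165) and 1.23 ± 0.242 (adjusted p = 0.000943), and Il18r1 was the 1 Th1 gene called at each (4.63% and 5.04% of all genes were). The call under the weak stimulus held with each of its 8 libraries left out. That under the very weak stimulus was lost without KO replicate 2 or 4 or WT replicate 2 or 4 (adjusted p from 0.0556 to 0.0777) and in a fit of its 8 libraries alone (adjusted p = 0.156). With the block, Ifng was also lower at 48 h, by log2 -1.67 (adjusted p = 0.000868) and -1.70 (0.00054), and 8.35% and 8.7% of all genes were called; its KO libraries held 13.3, 12.5, 3.70 and 6.73 CPM against 24.8, 38.9, 17.0 and 24.1 CPM under the very weak stimulus, with no overlap.

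With extra copies of the cluster, Ifng and Cxcr3 were higher in stimulated cells, and both IL-18 receptor chains were lower at 48 h. Under the very weak stimulus at 24 h, Ifng stood at 81.9, 66.1, 12.1 and 25.0 CPM in TG and at 8.57, 15.5, 4.03 and 5.81 CPM in WT cells. TG replicates 1 and 2 held the most and TG replicate 3 lay within the WT range. At 48 h the TG libraries held 101, 198, 62.0 and 77.3 CPM against 24.8, 38.9, 17.0 and 24.1 CPM, with no overlap. edgeR gave log2 fold changes of 2.45 ± 0.637 (adjusted p = 0.0166) and 2.38 ± 0.628 (0.0168) at 24 h of the very weak and weak stimulus, and of 2.06 ± 0.608 (0.0167) and 2.06 ± 0.605 (0.0193) at 48 h. These calls rest on few libraries: at 24 h they were lost without TG replicate 1 or 2, or without 2 of the WT replicates (3 and 4 of the very weak, 1 and 3 of the weak stimulus), with adjusted p from 0.0516 to 0.104. At 48 h they were lost without TG replicate 2, where the log2 values became 1.6 (0.0946) and 1.24 (0.259), and at the edge of the threshold without WT replicate 3 under the very weak (0.0518) and WT replicate 1, 3 or 4 under the weak stimulus (0.0511 to 0.0682). TG replicate 2 of the weak stimulus held 339 CPM against 77.8 to 87.0 CPM in the other 3.

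Cxcr3 stood at 12.2, 16.4, 8.82 and 9.25 CPM in TG cells at 24 h of the very weak stimulus against 2.80, 4.56, 4.18 and 3.36 CPM in WT cells, with no overlap in that state or in the other 3 stimulated states. The log2 fold changes were 1.65 ± 0.329 (edgeR, adjusted p = 0.00128) and 1.58 ± 0.328 (0.00181) at 24 h, calls that held with each library left out. At 48 h the value was 1.12 ± 0.326 (0.0151) under the very weak stimulus, lost without TG replicate 2 (0.81, 0.119) or WT replicate 1 or 4 (adjusted p from 0.057). Under the weak stimulus TG libraries held 7.88, 8.51, 7.15 and 5.52 CPM against 4.20, 4.60, 4.15 and 3.26 CPM. The edgeR fit of all libraries did not call Cxcr3 there without the block. It was called with the block (edgeR, log2 0.84, adjusted p = 0.035) and in a fit of only the 8 libraries compared (edgeR, 0.85, 0.0248).

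Il18r1 was far lower in TG than in WT cells at 48 h. It stood at 1.18, 1.96, 1.38 and 1.28 CPM in TG cells against 5.34, 4.78, 7.51 and 5.13 CPM in WT cells under the very weak stimulus. Every TG library was below every WT library at 48 h, by log2 -1.97 ± 0.275 (edgeR, adjusted p = 1.28e-06) and -1.90 ± 0.285 (6.41e-06), and both calls held with each library left out. At 24 h the fall was called under the weak stimulus (-1.27 ± 0.307, adjusted p = 0.00759). Il18rap stood at 5.37, 5.36, 5.80 and 4.82 CPM against 10.7, 10.3, 12.8 and 7.74 CPM at 48 h of the very weak stimulus, with no overlap, and fell by 0.96 ± 0.299 (adjusted p = 0.0252) and 1.13 ± 0.302 (0.00967) on the log2 scale. The first of these was lost without TG replicate 1, 2 or 4 or WT replicate 3 (adjusted p from 0.0544 to 0.0746) and the second without TG replicate 2 or WT replicate 1 (0.0625 to 0.0681). In all, edgeR called 2 of the 10 genes at 24 h of the very weak stimulus (3.73% of all genes), 3 at 24 h of the weak (4.81%), 4 at 48 h of the very weak (13.3%) and 3 at 48 h of the weak stimulus (9.96%).

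**Figure D3:**
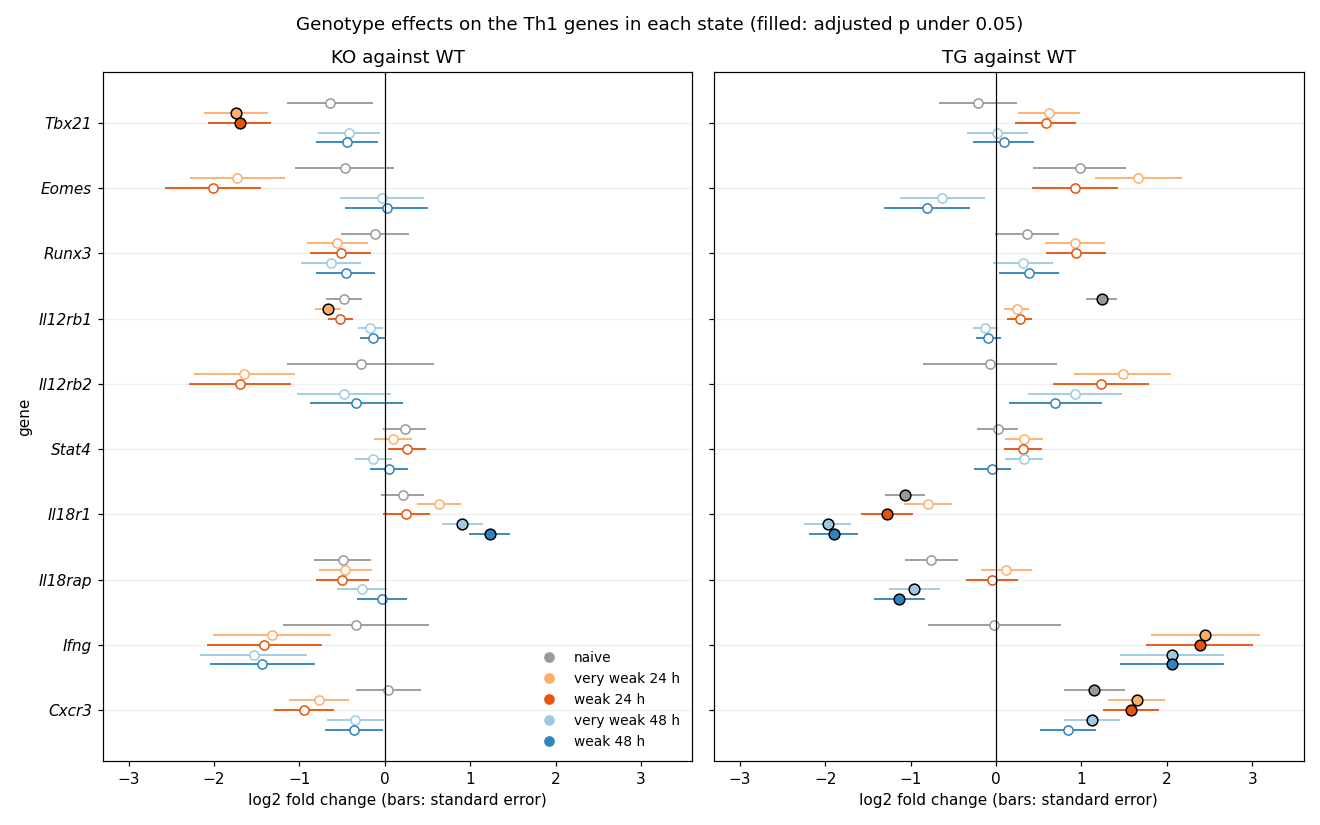
Log2 fold change against WT (x, bars are the standard error) of each Th1 gene (y), for KO cells (left) and TG cells (right). Colours mark the 5 states: grey for naive cells, light and dark orange for the very weak and weak stimulus at 24 h, and light and dark blue for them at 48 h. Filled points have an edgeR adjusted p under 0.05. Ifng and Cxcr3 lie above 0 in stimulated TG cells and Il18r1 below, at log2 -1.97 and -1.90 at 48 h, while Tbx21 lies at -1.74 and -1.70 in KO cells at 24 h.

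Runx3, Il12rb2 and Eomes were also high in TG cells at 24 h. Runx3 stood at 60.6, 74.3, 67.1 and 65.4 CPM in TG cells under the very weak stimulus against 32.6, 43.1, 25.5 and 39.3 CPM in WT cells, and at 73.4, 71.1, 67.3 and 68.2 against 34.1, 47.0, 32.4 and 33.0 CPM under the weak stimulus. Il12rb2 stood at 84.9, 97.2, 84.2 and 111 against 26.2, 35.1, 30.6 and 43.0 CPM, and Eomes at 31.5, 26.5, 22.6 and 18.6 against 7.78, 10.6, 4.23 and 8.66 CPM, under the very weak stimulus. None of these 4 sets of groups overlapped. The edgeR fit of all libraries without a block did not call them, DESeq2 called Eomes under the very weak stimulus (adjusted p = 0.0388; 5.11% of all genes), and the blocked edgeR fit called Runx3 (log2 0.97, adjusted p = 0.0173), Eomes (1.67, 0.0145) and Il12rb2 (1.48, 0.0367) under the very weak stimulus, where 6.71% of all genes were called, and Runx3 (0.97, 0.0161) under the weak stimulus (8.48%). A fit of only the 8 libraries compared called 8 of 10 Th1 genes at 24 h under each stimulus, where it called 9.38% and 9.4% of all genes. In that fit the values of Runx3 were 0.93 (adjusted p = 0.00141) and 0.94 (0.000887), and those of Tbx21 0.62 (0.00481) and 0.59 (0.0185).

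The TG effect on Eomes and Il18rap differed between the times. At 48 h of the very weak stimulus Eomes stood at 7.26, 8.40, 14.7 and 8.92 CPM in TG cells against 19.8, 22.9, 7.56 and 10.3 CPM in WT cells, overlapping, where at 24 h every TG library had been above every WT library. Over same-number pairs the TG to WT ratio of Eomes was above 1 in 8 of 8 pairs at 24 h (1.27 to 5.35) and below 1 in 6 of 8 at 48 h (0.295 to 1.94). The interaction was log2 -2.01 ± 0.502 (edgeR, adjusted p = 0.0208) and was lost only without WT replicate 1 of the weak stimulus at 48 h (-1.82, 0.0503). That of Il18rap was -1.08 ± 0.302 (adjusted p = 0.0447) and was lost without 23 of the 32 libraries in turn, with adjusted p from 0.0514 to 0.0936. These were 2 of the 10 genes, where 1.85% of all genes were called. Il12rb1 and Tbx21, for which edgeR did not call this interaction, had TG to WT ratios above 1 in 8 of 8 pairs each at 24 h, and in 0 and 5 of 8 pairs at 48 h.

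Markers of other cells were examined beside the TG results. The NK list summed to 25.5 to 32.2 CPM in TG cells against 5.87 to 15.4 in WT cells under the very weak stimulus at 48 h, and to 18 to 39.4 against 12 to 17.9 CPM under the weak stimulus. Gzma and Klrk1, which T cells can also express, made up most of it. The NK receptor gene Klrd1 had means of 2.33 against 1.59 CPM under the very weak and 1.97 against 1.62 CPM under the weak stimulus. Another, Klra8, was near the floor in both genotypes, at 0 in TG and a mean of 0.0502 CPM in WT cells at 48 h of the weak stimulus. At 24 h of the very weak stimulus the NK list summed to 4.30 to 8.37 CPM in TG cells and 3.6 to 5.15 in WT cells. The 5 effector memory genes summed to 306 to 401 CPM in TG and 207 to 288 in WT cells at that time, and to 476 to 633 and 296 to 437 CPM at 48 h. The 5 naive T cell genes summed to 784 to 1115 CPM in TG and 1088 to 1835 CPM in WT cells at 48 h of the very weak stimulus, with Ccr7 at a mean of 467 against 891 CPM. Of the innate-like T cell genes, which summed to 2.10 to 3.97 and 1.76 to 3.02 CPM there, the NKT cell factor Zbtb16 had means of 0.589 and 0.14 CPM. The part of these genes in the TG results was not tested.

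Naive cells already differed in the receptors when the cluster was added. Il12rb1 stood at 15.3, 14.5, 13.8 and 15.5 CPM in naive TG cells against 4.34, 7.55 and 6.87 CPM in WT cells, a log2 fold change of 1.24 ± 0.184 (edgeR, adjusted p = 5.99e-06). Il18r1 stood at 40.5, 39.6, 32.4 and 43.6 against 87.2, 86.1 and 72.5 CPM, or log2 -1.07 ± 0.235 (adjusted p = 0.00214). Neither pair of groups overlapped, and both calls held with each library left out. Cxcr3 was called as well (1.15 ± 0.356, adjusted p = 0.0347), with 10.2, 11.9, 4.17 and 14.2 against 4.08, 4.36 and 5.21 CPM. TG replicate 3 lay within the WT range, and the call was lost without any of the other 6 libraries (adjusted p from 0.0596 to 0.14). Together these were 3 of the 10 genes in naive TG cells (7.83% of all genes were called). Eomes and Runx3, which this fit did not call, stood at 22.6 to 30.8 and 121 to 143 CPM in naive TG cells against 9.19 to 15.4 and 99.1 to 104 CPM in naive WT cells, without overlap. A fit of only these 7 libraries called both (log2 0.98, adjusted p = 0.00662, and 0.37, 0.0212) beside Il12rb1 and Il18r1, and not Cxcr3 (9.17% of all genes were called). The effector memory list summed to 116 to 190 CPM in naive TG and 123 to 149 in naive WT cells, and the NK list to 50.4 to 84.1 and 75.5 to 131 CPM. Il7r, of the naive T cell list, had means of 272 and 618 CPM.

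The TG effect on Il12rb1 in stimulated cells was smaller than in naive cells, by log2 -1.16 ± 0.197 (edgeR, adjusted p = 0.000105; 6.18% of all genes were called). Ifng overlapped between naive TG and WT cells (6.24, 4.44, 1.82 and 1.6 against 4.18, 3.77 and 2.79 CPM), and the larger TG effect after stimulation was called by DESeq2 (adjusted p = 0.045; 8.35% of all genes) and not by edgeR without a block. With the block edgeR called it (log2 1.92, adjusted p = 0.00608; 9.13% of all genes), although the numbers do not pair naive libraries. In naive KO cells edgeR called 0 of the 10 Th1 genes, DESeq2 also called 0, and 1 (Il12rb1) had an unadjusted p under 0.05; 0.0365% of all genes were called by edgeR and 0.0857% by DESeq2. Runx3 had 93.8, 93.4 and 95 CPM there against 104, 99.1 and 101 in WT cells. No Th1 gene had a KO effect that differed between stimulated and naive cells in edgeR, in DESeq2 or at an unadjusted p under 0.05 (0.168% of all genes were called by edgeR and 0.615% by DESeq2).

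A comparison across the states used pools, 4 per genotype, each the sum of the 4 stimulated libraries that carry 1 replicate number. Tbx21 stood at 62.7, 71.0, 35.3 and 47.1 CPM in the KO pools, 85.0, 114, 94.3 and 107 in the WT pools and 115, 151, 113 and 124 in the TG pools. The KO pools lay below all WT pools, while WT and TG pools overlapped. Against WT, Tbx21 fell in KO cells by log2 -0.89 ± 0.185 (edgeR, adjusted p = 0.0166) and Il18r1 rose by 0.89 ± 0.196 (0.0223), as 2 of the 10 genes (5.93% of all genes were called). The median log2 fold change of the 10 genes was -0.47 against 0.00589 over all genes tested. Tbx21 lost its call without KO replicate 4 (-0.83, 0.0501), and Il18r1 without KO replicate 2 or 4 or WT replicate 1, 2 or 4 (0.0551 to 0.068). With the block, Il12rb1 (log2 -0.36, adjusted p = 0.00955), Ifng (-1.64, 0.00168) and Cxcr3 (-0.61, 0.0235) were called too, where 19.4% of all genes were.

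The KO values were also taken by replicate number. With replicates 1 and 2 alone the log2 fold change of Tbx21 in the pools was -0.57 (adjusted p = 0.204) and 0 of the 10 genes were called (0.124% of all genes), and with replicates 3 and 4 alone it was -1.29 (0.0109) and 5 were called (2.18%). Ifng went from -1.13 (0.206) to -2.27 (0.0152) and Eomes from -0.06 (0.803) to -1.52 (0.0278). Il18r1 stayed alike, at 0.91 (0.144) and 0.85 (0.173). A difference between the replicate numbers in the size of the effect was not tested.

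In TG pools Ifng rose by log2 2.14 ± 0.548 (edgeR, adjusted p = 0.0233) and Cxcr3 by 1.32 ± 0.261 (0.00711), and Il18r1 fell by 1.55 ± 0.205 (0.00083) on the log2 scale, as 3 of the 10 genes (13.6% of all genes). The median of the 10 was 0.32 against -0.00741 over all genes. The Ifng pools held 89.3, 174, 42.2 and 55.5 CPM in TG and 19.5, 31.8, 12.7 and 17.7 in WT cells, and its call was lost without TG replicate 1 or 2 or WT replicate 1, 3 or 4 (0.0537 to 0.076). With the block Il18rap was called as well (-0.55, 0.0426; 29.3% of all genes).

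TG and KO pools, which lie at the ends of the allele series, differed in 6 of the 10 genes, against 44.3% of all genes. Ifng was higher in TG by log2 3.6 ± 0.586 (edgeR, adjusted p = 0.000443), Cxcr3 by 1.90 ± 0.266 (0.000159), Tbx21 by 1.22 ± 0.186 (0.000291), Runx3 by 1.07 ± 0.357 (0.0283) and Il12rb1 by 0.42 ± 0.114 (0.00949), and Il18r1 was lower by 2.43 ± 0.208 (4.67e-06). Cxcr3 pools stood at 2.88, 3.88, 1.96 and 1.95 CPM in KO and 9.70, 14.2, 8.29 and 7.58 CPM in TG cells. Il18r1 pools stood at 6.26, 8.41, 5.40 and 8.60 CPM in KO, 3.78, 4.01, 4.56 and 3.17 in WT and 1.14, 1.69, 1.49 and 0.981 in TG cells, so that all 3 genotypes were apart in the order opposite to that of Cxcr3 and Ifng. The Runx3 call was lost without KO replicate 3 or 4 or TG replicate 2 (0.0508 to 0.076). With the block, Eomes (1.07, 0.0444) and Il12rb2 (1.88, 0.00463) were called too, where 57% of all genes were.

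Same-number pairs over the 4 stimulated states describe how steady these directions were. Of 16 pairs, KO was below WT in 16 for Tbx21 and Ifng, 15 for Runx3 and Cxcr3, 14 for Il12rb1, 13 for Il12rb2 and 12 for Eomes and Il18rap, and above WT in 13 for Il18r1 and 11 for Stat4. TG was above WT in 16 of 16 for Ifng, Cxcr3, Il12rb2 and Runx3, in 14 for Stat4, 13 for Tbx21, 10 for Eomes and 8 for Il12rb1, and below WT in 16 for Il18r1 and 11 for Il18rap. Stat4 was called in no comparison of KO or TG with WT in the edgeR fits of all libraries or pools, with or without the block; a fit of only the 8 libraries called it in TG cells at 24 h of the very weak stimulus (log2 0.33, adjusted p = 0.0452). Its libraries at 48 h of the weak stimulus ran from 151 to 493 CPM in KO, 241 to 389 in WT and 247 to 323 in TG cells. The pairs of 1 number share their source across states where the numbers mark shared cells, which the labels do not state.

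The strength of the anti-CD3 signal was 0.5 against 0.25 µg/ml. Over the 3 genotypes and both times edgeR called 0 of the 10 (1.03% of all genes were called), 1 had an unadjusted p under 0.05, and DESeq2 called Il18r1 (adjusted p = 0.0412; 2.14% of all genes). Ifng means in TG cells were 46.3 and 60.2 CPM at 24 h and 110 and 146 CPM at 48 h of the very weak and the weak stimulus, within the spread of their libraries.

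Intronic reads, which come mostly from transcripts not yet spliced, were set beside exonic reads in the same pools. In TG against WT cells the intronic counts of Il18r1 fell by 1.73 ± 0.222 on the log2 scale (edgeR, adjusted p = 0.000949), the 1 Th1 gene called among intronic counts (2.06% of all genes were called), beside an exonic fall of 1.55. In TG against KO cells intronic counts called the same 6 genes as exonic counts: Ifng (log2 2.50, adjusted p = 0.0037), Runx3 (2.36, 0.00079), Cxcr3 (1.97, 0.0393), Tbx21 (1.08, 0.0141), Il12rb1 (0.45, 0.0401) and Il18r1 (-2.36, 1.5e-05), where 16.7% of all genes were called. In KO against WT cells intronic counts called 0 (0.11% of all genes) and 4 had an unadjusted p under 0.05; DESeq2 was not run on them.

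Runx3 was the 1 of the 10 genes whose exonic and intronic changes were called different. Its intronic level was 53.5, 52.3, 17.9 and 42.2 CPM in the WT pools and 115, 147, 67.3 and 109 CPM in the TG pools, without overlap, while its exonic level was 62.7, 94.9, 39.7 and 63.9 against 89.3, 116, 79.2 and 91.8 CPM, with overlap. The exonic minus the intronic TG effect was log2 -0.90 ± 0.158 (edgeR, adjusted p = 0.0193), where 0.266% of all genes were called. It was not called in a fit without a term for the pool (adjusted p = 1), with the replicate block (-0.86, 0.225), or without TG replicate 1 (-0.85, 0.0597), TG replicate 2 (-0.85, 0.102) or WT replicate 2 (-0.83, 0.0813). Runx3 holds the miR-19 match printed above and a 53063-base intronic span that overlaps the antisense gene Gm16224, whose reads may be counted with it. Of the other genes with a match, Eomes, Il12rb2 and Il18rap, none was called in this test. In KO cells 0 of the 10 differed, with 0 at an unadjusted p under 0.05 (0.403% of all genes were called).

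**Figure D4:**
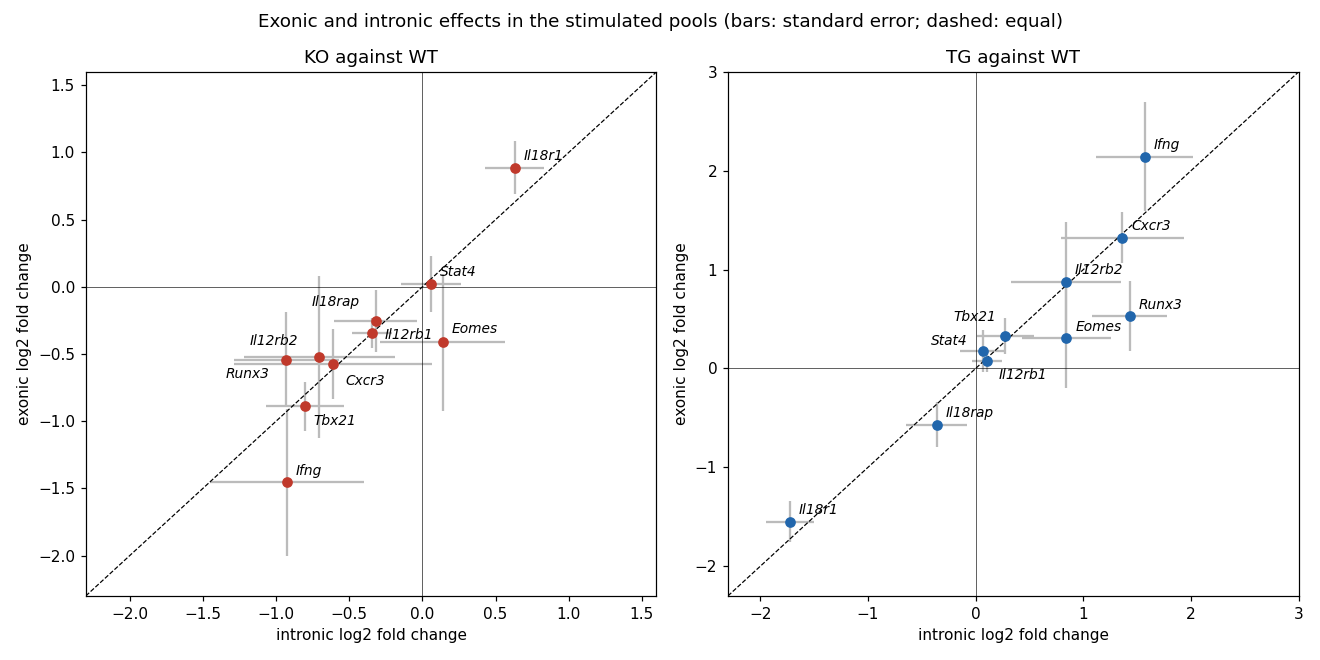
Log2 fold change against WT of exonic counts (y) and of intronic counts (x) in the stimulated pools, for KO (left, red) and TG (right, blue); bars are standard errors and the dashed line marks equal change. Runx3 in TG cells lies off the line, at an intronic value of 1.43, and Il18r1 lies near it at -1.73.

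The wider Th1 pathway was read from gene lists in the pools, where edgeR called the shares of all genes given above and DESeq2 10.4% in KO and 18.1% in TG cells. The 15 effector products of Th1 cells, such as chemokines and cytotoxic genes, had 0 calls in KO cells (3 at an unadjusted p under 0.05, DESeq2 called 1) and a median log2 fold change of -0.52, and with the block 5 were lower. In TG cells their median was 0.45 and 1 rose: Il10, a cytokine that restrains inflammation, by 3.27 ± 0.714 (edgeR, adjusted p = 0.0117), with 7 higher under the block. The same medians over all genes were 0.00589 and -0.00741. Of the 11 signalling genes below the IL-12 and interferon-gamma receptors 2 rose in KO cells, the kinases Jak1 (0.35 ± 0.0678, adjusted p = 0.012) and Jak2 (0.48 ± 0.12, 0.0363). Jak1 stood at 483 ± 46.3 CPM in KO, 379 ± 16.4 in WT and 279 ± 14.4 in TG pools (SD, n = 4). In TG cells 1 of these 11 rose, the receptor chain Ifngr2 (0.48, adjusted p = 0.00592), and Jak1 (-0.44, 0.00183) and Tyk2 (-0.28, 0.0196) fell. The list medians were 0.04 in KO and -0.11 in TG cells.

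The 11 genes of IL-18 signalling had 0 calls in KO cells (2 at an unadjusted p under 0.05, DESeq2 0) and 0 in TG cells (3 and 2), with medians of 0.00775 and 0.02. Among 12 transcription factors that work with T-bet or RUNX3, 0 were called in KO cells (2 at an unadjusted p under 0.05, DESeq2 0). In TG cells the repressor Prdm1 rose (1.58 ± 0.383, adjusted p = 0.0186) and Irf1 fell (-0.30, 0.031), with medians of 0.00862 and 0.15. Of the 11 regulators of opposing lineages 3 fell in KO cells: the Th2 cytokine Il4 (-2.64 ± 0.486, adjusted p = 0.00933), its receptor chain Il4ra (-0.60 ± 0.112, 0.0104) and Gfi1 (-0.63 ± 0.118, 0.011), with a list median of 0.04. In TG cells 5 rose, including Il4 (3.34, adjusted p = 0.000597), the Th2 regulator Gata3 (1.27, 0.00177) and Gfi1 (0.55, 0.0109), while Foxp3 of regulatory T cells fell (-0.98, 0.0111), with a list median of 0.02.

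Likeness was measured as the Pearson correlation of mean log2 CPM over the 12 stimulated groups, which share genotype, time and WT controls and are not independent points. Tbx21 was most like Rmdn3 (0.98), Il12rb1 (0.97) and Tbkbp1 (0.97), the last of which neighbours Tbx21 on chromosome 11. Eomes was most like Myc (0.97), Igtp (0.96) and Icam1 (0.96), Runx3 like Bcorl1, Thy1 and Cnn3 (0.99 each), and Il12rb2 like Cemip2 (0.99), Il2rb and Lif. Ifng was most like Mief1 (0.99), Fubp3 and Cdc16, Cxcr3 like Dclre1b (0.97), Simc1 and Plaur, Il18r1 like Trim12a (0.99), Parp8 and Shisa5, and Il18rap like Extl3 (0.98), Ilrun and Mpeg1. Stat4 was most like Gzf1, Oip5os1 and Scd1, and Il12rb1 like Tbx21, Rmdn3 and Myc. Among the 10 genes, Runx3 and Il12rb2 correlated at 0.97, Runx3 and Ifng at 0.95 and Tbx21 and Eomes at 0.93, and the lowest value was -0.70 for Il18r1 and Cxcr3.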

How the data were processed

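The authors deposited raw whole-number counts of reads per gene, in an exonic and an intronic table. Tools named in the submitters' processing notes are STAR 2.5.2a, FastQC 0.11.5, edgeR 3.24.3 and R 3.5, with mm10 as the build. How reads were counted (program, annotation, strand) is not given in the sources used here, and reads of overlapping genes cannot be told apart (Runx3 with Gm16224, Eomes with Gm33460, Il12rb2 with Serbp1, Stat4 with Gm28177 and Gm3940, Ifng with Gm49751). Intronic counts exceeded exonic counts in 14.1% of values, so the exonic table holds no intronic reads. Entrez IDs were matched to RefSeq symbols (23968 of 24028).

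All 58 libraries entered 1 edgeR 4.0.16 quasi-likelihood fit (R 4.3.3) with TMM factors and the filterByExpr filter, which kept 13709 genes (43 residual degrees of freedom). Calls are at 0.05 after Benjamini-Hochberg adjustment over all genes tested. Pools are counts summed over the 4 stimulated states of a genotype and replicate number (12 pools, 13567 genes, 9 residual degrees of freedom). The exonic and intronic fit had a term for each pool (11659 genes), and intronic pools alone 12774 genes. The labels do not say what equal replicate numbers mark, or that libraries come from separate mice, so p-values measure the spread between these libraries, which may be technical. Same-numbered KO, TG and WT libraries of a stimulated state deviated together (correlations of their deviations from 0.132 to 0.625, median 0.274; pools from 0.249), so a fit with the replicate number as a block is given there; the naive groups were not paired (lowest -0.0487).

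Alternatives were DESeq2 1.42.0, its size factors in edgeR, no filter, the block, fits of only the groups compared, a mean over the 16 stimulated libraries of a genotype, subsets of replicates and each library or pool left out; gene values were recomputed where a gene was called with or without the block, and in all pooled comparisons. The tests were checked on simulated counts with known changes. UTRs are those of GENCODE M21 on GRCm38, and promoter and microRNA sequences are RefSeq's on GRCm38.p6. Il12rb1 has no promoter window. The genes, lists and tests were chosen with earlier results of these data known; of each pathway list up to 3 called genes with the smallest adjusted p are named per pooled comparison. Some members of the pathway lists are not reported here.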

Additional observations from a re-analysis of the deposited data

Results flagged for a closer look

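In 5 of the 130 gene and group combinations with 4 libraries, 1 library lay far from the other 3, and chance alone flags about 1 in 20. Under the very weak stimulus at 24 h, Tbx21 stood at 102 CPM in WT replicate 4, where the other 3 libraries held 78.7 to 81.0 CPM. Eomes stood at 30.8 CPM in naive TG replicate 4 against 22.6 to 23.5 CPM in the others. Runx3 stood at 47.0 CPM in WT replicate 2 at 24 h of the weak stimulus against 32.4 to 34.1 CPM. Il18r1, in the same state as Tbx21, stood at 4.26 CPM in WT replicate 2 against 2.27 to 2.52 CPM. Ifng stood at 339 CPM in TG replicate 2 at 48 h of the weak stimulus against 77.8 to 87.0 CPM, and its call in that state was lost without this library (edgeR, adjusted p = 0.259).

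In 3 tests of the difference itself, the TG effect was not the same under both conditions. From 24 h to 48 h it changed by log2 -2.01 for Eomes, from higher in 8 of 8 same-number pairs to lower in 6 of 8, and by -1.08 for Il18rap, which was lower in 8 of 8 pairs at 48 h. Between naive and stimulated cells the TG effect on Il12rb1 was smaller after stimulation by log2 -1.16. The adjusted p-values of these tests in edgeR were 0.0208, 0.0447 and 0.000105.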

How the results depend on the processing

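Counts of called genes are out of 10 and come from edgeR unless DESeq2 is named. With the replicate block, KO effects at 24 h called 5 genes under each stimulus and at 48 h 2 under each, the KO pools 5, the change of the KO effect from 24 h to 48 h 3, TG cells at 24 h of the very weak stimulus 5, the TG stimulated minus naive difference 2, the strength contrast 1 (Il18r1, log2 -0.37, adjusted p = 0.0374) and the TG exonic minus intronic difference 0, which was also 0 without a pool term. Numbers were taken as pairing the genotypes within a stimulated state only: over all pairs of stimulated groups same-numbered libraries correlated from -0.036 (median 0.179, against -0.059 for other numbers), and naive with stimulated groups from -0.17. DESeq2 called 3 in KO cells at 24 h of the weak stimulus, 1 for the KO change over time, 2 for TG stimulated minus naive and 1 for strength. Fits of only the groups compared called 0 in KO cells under the very weak stimulus at 24 h and 0 at 48 h, 4 at 24 h of the weak, and 8 in TG cells at 24 h under each stimulus. A mean over the 16 stimulated libraries, which treats them as independent, called 8 in KO and 6 in TG cells, replicates 1 and 2 alone 0 and 5, and replicates 3 and 4 alone 5 in KO cells.

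Leaving out 1 library or pool gave 0 to 3 calls for the KO pools and for the KO and TG changes over time, 0 to 2 in KO cells at 24 h of either stimulus, 0 to 1 at 48 h of the very weak and 1 at 48 h of the weak stimulus, 2 to 3 for the TG pools, naive TG cells and TG cells at 24 h of the weak stimulus, 1 to 2 at 24 h of the very weak, 1 to 4 at 48 h of the very weak and 1 to 3 at 48 h of the weak stimulus, 5 to 7 for TG against KO, and 0 to 1 for strength and the TG exonic minus intronic difference. Signs of uncalled values turned for Stat4 in KO pools (block -0.0194, replicates 3 and 4 -0.35, 4 pools left out, -0.228 to 0.179), TG pools (replicates 1 and 2, -0.00543) and TG against KO (replicates 1 and 2, -0.27), for Eomes in TG pools (replicates 1 and 2, -0.0539) and for Il18rap in TG against KO (replicates 3 and 4, 0.23). The cause was not tested. Of 109 gene values recomputed with DESeq2's size factors 109 kept direction and side of the threshold, as did 108 with no filter. CPM on raw library sizes moved 2 of 150 group levels by over 1 SD. Precision is limited by the 3 or 4 libraries of a group, and for genes with few counts (11 at the lowest, for Eomes) also by counting error.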
